A study of Homo sapiens and Mus musculus with 33 samples.

Results

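The 6 ChIP-seq libraries compared were all of the H3K18cr and H3K18ac libraries prepared from vehicle-treated HCT116 cells, 3 per mark, out of 33 libraries in the whole series. HCT116 cells are a line derived from a human colon carcinoma. The cells of all 6 libraries received DMSO for 18 h, their chromatin was sonicated in a buffer with sodium butyrate, and the marks were precipitated with different antibodies, so a difference in antibody performance cannot be told apart from a difference in the mark. Cells given 5 µM MS275, an inhibitor of class I histone deacetylases, for the same 18 h gave 3 further libraries per mark, which are used here as separate libraries in which the marks could be compared again. The labels number the replicates but do not say whether they came from separate cultures, so the p-values measure the spread between these libraries.

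Lysine 18 of histone H3 can carry an acetyl group or a crotonyl group, which is longer and flat. The same acyltransferases, EP300 and CREBBP, can add either group, class I histone deacetylases can take either off, and proteins with a YEATS domain favour the crotonyl form whereas most bromodomains favour the acetyl form. Both modifications are found over the transcription start sites (TSS) of active genes and over distal regulatory regions. The question put to these libraries was which loci carried relatively more of one acylation than of the other.

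The comparison covered the 40266 MACS peaks that the authors called for all HCT116 libraries together, of which 39997 had a mean of at least 10 scaled reads and were tested. The libraries held 3197649 to 5730094 reads in peaks for H3K18cr and 3430854 to 5122616 for H3K18ac. Because each antibody gives a total of its own, each library was centred on its median peak, and a difference is the log2 ratio of H3K18cr to H3K18ac relative to the median peak. A value below 0 means relatively more H3K18ac, and the median difference over all tested peaks was −0.041, against which shares below 0 and small medians are to be read. In RNA of HCT116 cells given DMSO in the same way, 16 of 24 colon epithelial genes had at least 10 counts in each of 4 libraries, with KRT8, KRT18, KRT19 and EPCAM at the top, whereas LGR5, ASCL2, TFF3 and CDX1 were among those at 0. Of 12 immune and 12 stromal markers, 2 and 3 reached that count.

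Across peaks, H3K18cr replicates 1 and 2 correlated at 0.975, but H3K18cr replicate 3 correlated at 0.957 and 0.956 with them and at 0.962 to 0.964 with the 3 H3K18ac libraries. H3K18cr replicate 3 was thus closer to each H3K18ac library than to its own mark, and calls are given with and without it. Whether the label of H3K18cr replicate 3 is right was not tested. The study's methods state 2 replicates for H3K18cr in HCT116 cells, whereas a figure legend on both marks gives n = 3. All 3 H3K18cr libraries with DMSO were used here. The H3K18ac libraries correlated at 0.965 to 0.967 with each other, and H3K18cr replicate 1 with H3K18ac replicate 3 at 0.965. The SD of the log2 values across peaks, a measure of how far strong and weak peaks are spread, was 1.54 to 1.56 in the H3K18cr libraries and 1.48, 1.56 and 1.67 in H3K18ac replicates 1, 2 and 3.

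Of the 39997 peaks, 280 differed between the marks (limma, Benjamini-Hochberg adjusted p under 0.05), which is 0.700% of those tested. H3K18ac was relatively higher at 267 peaks (0.668%) and H3K18cr at 13 (0.0325%). The H3K18ac-higher peaks lay almost all at promoters, with 256 of 267 within 1 kb of a protein-coding TSS, where 32.02% of all tested peaks lay. They included the promoters of PIK3C3, SMU1, MCM2 and RPL5, and the differences ran from −1.17 to −0.55 with a median of −0.68 on the log2 scale. The 13 H3K18cr-higher peaks were mixed in position, with 8 at a protein-coding TSS, 1 at another TSS, 3 inside genes and 1 outside genes, and their differences ran from 0.56 to 0.91. An unadjusted p under 0.05 was met by 5187 peaks.

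**Figure D1:**
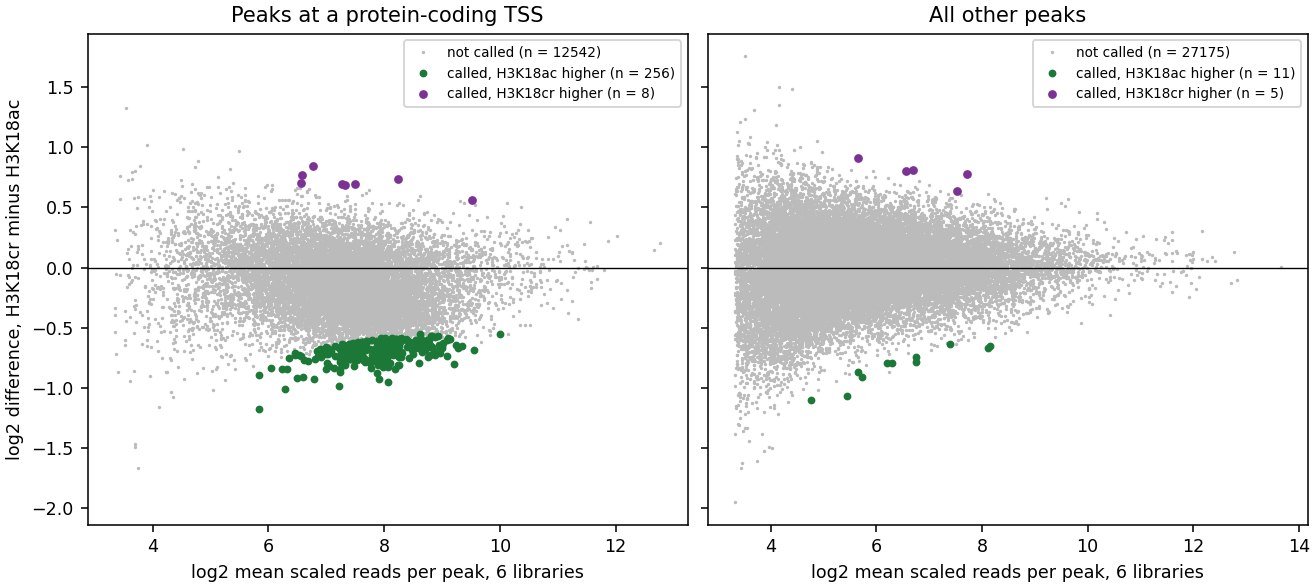
Each point is a peak, with the log2 difference H3K18cr minus H3K18ac (vertical axis) against the log2 of its mean scaled reads over 6 libraries (horizontal axis), for peaks at a protein-coding TSS (left) and all others (right). Green points are called H3K18ac higher (256 at TSS, 11 elsewhere) and purple points H3K18cr higher (8 and 5). The grey TSS cloud of uncalled peaks sits mostly under 0, with all TSS peaks at a median of −0.13.

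The number of calls depended on the libraries and on the scaling. Without H3K18cr replicate 3, 2972 peaks (7.43%) were called, 2297 with H3K18ac higher and 675 with H3K18cr higher, and these held all 280. Of those, 77.2% and 40.7% lay at a protein-coding TSS. Without H3K18cr replicate 1, 4 peaks were called, and without H3K18cr replicate 2, H3K18ac replicate 2 or H3K18ac replicate 3 none was, with 3045, 3721 and 4892 peaks at an unadjusted p under 0.05. With the deposited values without centring and after cyclic loess normalization none was called either, with 2212 and 5440 peaks at an unadjusted p under 0.05. All single-peak calls given by name further on were therefore lost in those 5 fits, and all were kept without H3K18cr replicate 3. With the replicate number as a block none was called either, with 4463 peaks at an unadjusted p under 0.05. Of the 24 calls named by rule, 21 were lost without H3K18cr replicate 1 and 14 without H3K18ac replicate 1. Without H3K18ac replicate 1 there were 232 calls, of which 169 were among the 280. With edgeR on the reads recovered from the deposited values, 256 peaks (0.640%) were called, of which 197 were among the 280, and the split was 185 with H3K18ac higher and 71 with H3K18cr higher in place of 267 and 13. DESeq2 called 260, split 226 to 34.

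Promoters of 3 H3K18ac-higher and 3 H3K18cr-higher TSS peaks are printed here to set their letters beside the measured differences. POLR3E encodes an RNA polymerase III subunit, NOC4L a ribosome assembly factor and TRAPPC6A a subunit of a vesicle tethering complex. CORO2B encodes an actin-binding coronin, HRH1 a histamine receptor and FIBCD1 a membrane receptor that binds acetylated sugars. Each line holds the 150 bases before the start of the gene in RefSeq (GRCh38.p14), 5′ to 3′ on the gene's strand, with matches to the motifs listed further on in capitals. The stretches are chr16:22297259-22297408 (plus strand), chr12:132144307-132144456 (plus strand), chr19:45178238-45178387 (minus strand), chr15:68578843-68578992 (plus strand), chr3:11154343-11154492 (plus strand) and chr9:130939248-130939397 (minus strand).
POLR3E: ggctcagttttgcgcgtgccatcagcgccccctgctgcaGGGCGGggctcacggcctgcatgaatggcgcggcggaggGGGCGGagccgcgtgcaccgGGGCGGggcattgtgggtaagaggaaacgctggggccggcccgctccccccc
NOC4L: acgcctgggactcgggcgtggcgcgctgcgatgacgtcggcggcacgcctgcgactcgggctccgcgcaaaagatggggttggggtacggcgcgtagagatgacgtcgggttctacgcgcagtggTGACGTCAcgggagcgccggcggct
TRAPPC6A: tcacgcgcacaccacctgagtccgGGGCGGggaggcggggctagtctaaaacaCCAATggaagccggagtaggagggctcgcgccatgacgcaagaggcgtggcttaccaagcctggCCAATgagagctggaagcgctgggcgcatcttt
CORO2B: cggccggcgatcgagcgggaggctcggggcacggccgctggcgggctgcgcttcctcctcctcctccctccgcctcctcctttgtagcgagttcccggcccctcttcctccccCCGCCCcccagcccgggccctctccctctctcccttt
HRH1: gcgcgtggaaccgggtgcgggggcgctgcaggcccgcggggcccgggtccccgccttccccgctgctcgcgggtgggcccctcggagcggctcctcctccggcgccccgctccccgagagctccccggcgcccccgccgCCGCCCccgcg
FIBCD1: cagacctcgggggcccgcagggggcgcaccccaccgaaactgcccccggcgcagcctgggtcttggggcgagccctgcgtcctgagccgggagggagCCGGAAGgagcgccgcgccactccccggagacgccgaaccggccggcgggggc
In this window POLR3E held 3 matches to the GC box, NOC4L a cyclic AMP response element, TRAPPC6A 2 CCAAT boxes and a GC box, CORO2B and HRH1 a GC box on the other strand, and FIBCD1 the ETS letters.

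The peak over the start of PIK3C3, the lipid kinase of autophagy and endosomes (chr18:41955001-41956200, GRCh38) had the largest difference among the peaks named by rule. Scaled to a common median peak of 68.3 reads, it held 30.1, 28.4 and 48.3 reads in the H3K18cr libraries and 64.4, 85.8 and 85.4 in the H3K18ac libraries. The marks did not overlap, as the naming rule required, and H3K18cr replicate 3 lay nearest to H3K18ac. The difference was −1.17 ± 0.22 (SE, limma adjusted p = 0.0208, n = 3 libraries per mark), and in the MS275 libraries it was −0.88. The peak over SMU1, a spliceosome component (chr9:33075601-33077700), held 93.8, 83.8 and 124.9 reads for H3K18cr and 172.0, 217.6 and 203.7 for H3K18ac. All H3K18cr values lay under all H3K18ac values, as the rule required, and the difference was −0.99 ± 0.17 (SE, limma adjusted p = 0.0160). The peak shared by ALG2, a mannosyltransferase of N-glycan assembly, and SEC61B, a subunit of the protein-conducting channel (chr9:99220651-99223350), had 161.2, 159.8 and 233.2 reads against 317.8, 352.6 and 383.6. It differed by −0.95 with DMSO (limma adjusted p = 0.0160) and by −0.60 with MS275.

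The remaining H3K18ac-higher peaks named by rule differed by −1.01 to −0.87. They included the promoters of POLR3E (−0.93), the spliceosome disassembly factor TFIP11 (−0.92), the Mediator subunit MED4 (−0.91), the vesicle tethering factor TRAPPC6A (−0.92), the splicing-associated anchoring protein AKAP17A (−1.01) and the RAS family GTPase NRAS (−0.87). At POLR3E the H3K18cr libraries held 124.7, 135.3 and 264.8 reads and the H3K18ac libraries 302.1, 336.7 and 301.6. At NOC4L, whose peak also covers the start of the helicase gene DDX51, the values were 160.3, 145.6 and 184.9 against 239.0, 327.2 and 340.3. UPF3B, a factor of nonsense-mediated decay, and TAF1B, a subunit of the RNA polymerase I factor SL1 whose peak lay inside the gene, had H3K18cr replicates close together. UPF3B held 41.0, 38.7 and 39.98 reads against 82.7, 60.4 and 80.8, and TAF1B 37.3, 37.4 and 35.0 against 67.0, 69.9 and 69.4. These were the only named H3K18ac-higher peaks whose difference was above 0 with MS275, at 0.19 and 0.28, and the change of the difference between treatments did not pass the test (limma interaction, adjusted p = 0.999 for both).

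Among the H3K18cr-higher peaks, the peak of SMAD7, the inhibitory SMAD of TGF-beta signalling (chr18:48946651-48953400) held 426.1, 386.6 and 294.8 reads for H3K18cr and 183.9, 292.2 and 194.6 for H3K18ac. H3K18cr replicate 3 lay just above H3K18ac replicate 2, and the difference was 0.74 ± 0.17 (SE, limma adjusted p = 0.0278) with DMSO and 0.65 with MS275. CORO2B (chr15:68577751-68580450) held 187.6, 130.1 and 98.3 reads against 72.2, 65.1 and 87.6, a difference of 0.85 ± 0.19 (SE, limma adjusted p = 0.0311). HRH1 (chr3:11153551-11156400) held 127.5, 126.3 and 103.3 against 80.1, 73.1 and 56.9, a difference of 0.77. The lowest H3K18cr value at each of these genes was replicate 3.

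The other H3K18cr-higher promoters were those of FIBCD1 (0.70), LITAF, an endosomal membrane protein (0.70), COL13A1, a transmembrane collagen (0.69), SNRNP200, a spliceosomal helicase (0.70), and PHC2, a Polycomb protein (0.56). PHC2 lay under the widest of them, an 18750 bp peak with 934.2, 967.7 and 701.3 reads against 573.9, 589.2 and 582.8. SNRNP200 had a difference of 0.0045 in the MS275 libraries, whereas FIBCD1 had 0.55 and PHC2 0.36. Away from protein-coding starts, H3K18cr was higher inside ANGPT4, an angiopoietin gene (0.81), inside RTEL1, a telomere helicase gene (0.80), at the noncoding gene LINC00629 (0.91) and at a region 26797 bp from the JUN start (0.64). The libraries of each mark lay close together at ANGPT4, with 125.7, 139.2 and 124.9 reads for H3K18cr and 74.9, 76.2 and 70.6 for H3K18ac.

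**Figure D2:**
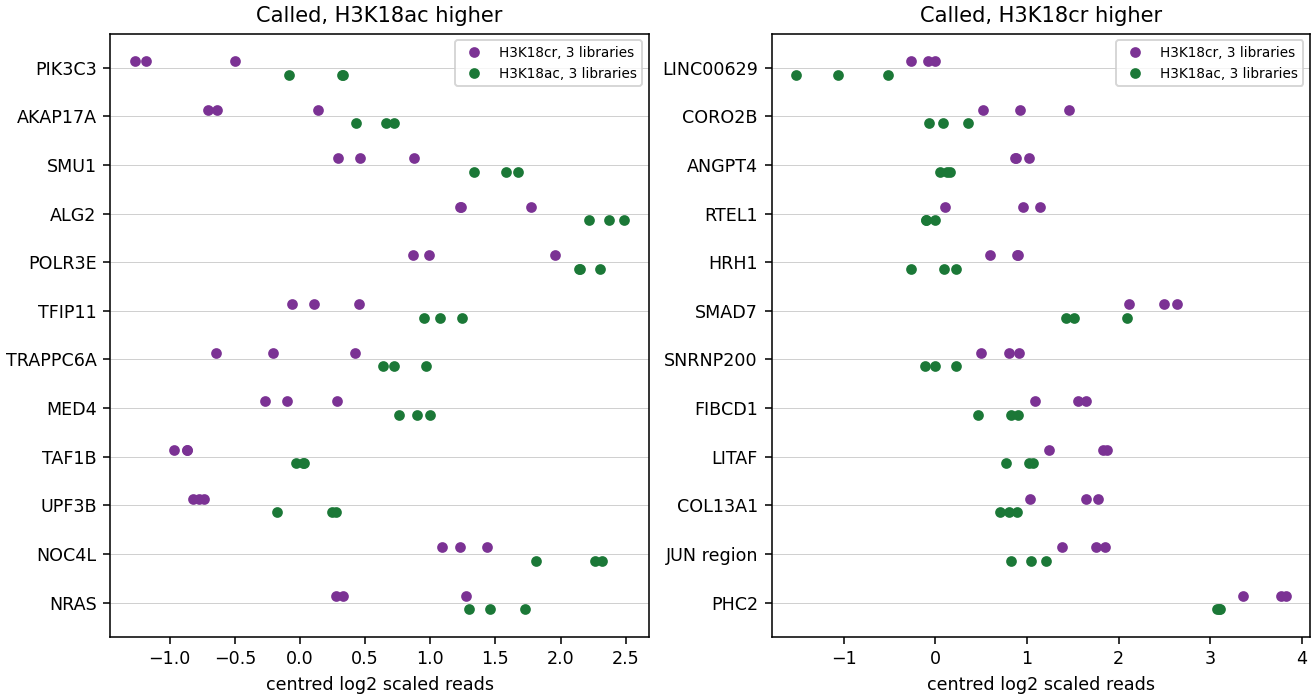
Centred log2 scaled reads (horizontal axis) of the 12 named peaks called H3K18ac higher (left) and the 12 called H3K18cr higher (right), with 1 point per DMSO library, purple for H3K18cr and green for H3K18ac. The points of the marks do not overlap in any row, which the naming rule required, and at POLR3E and NRAS the purple point nearest to green is H3K18cr replicate 3.

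The called H3K18ac-higher promoters lay closely over their start and varied less in width than TSS peaks at large. The 256 called TSS peaks had a median width of 2775 bp, against 2550 bp for all 12806 TSS peaks, with 10th and 90th percentiles of 1800 and 3900 bp against 1350 and 5550 bp. Their midpoints lay a median of 120 bp from the nearest start, against 217 bp. Starts on both strands were found at 66 of 256 (25.8%) of them, against 12.2% of all TSS peaks and 0 of the 8 H3K18cr-higher TSS peaks (19 of 275 without H3K18cr replicate 3). Their median GC content was 51.2%, under the 54.7% of all TSS peaks, and that of the H3K18cr-higher TSS peaks was 58.9%. The H3K18cr-higher peaks were weaker over input, with a median log2 ChIP over input of 1.18 over all 13, against 2.26 for the H3K18ac-higher peaks and 1.09 for all peaks. The part of signal over input in these counts was not tested.

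Over all 12806 TSS peaks, called or not, the median centred value was 1.12, 1.08 and 1.07 in H3K18cr replicates 1 to 3 and 1.13, 1.22 and 1.38 in the H3K18ac replicates. Each H3K18ac library lay above each H3K18cr library, the nearest pair by 0.01, and the mean difference was −0.15 (two-sided p = 0.1 by exact permutation, which is the lowest value possible with 3 libraries per mark, Benjamini-Hochberg adjusted 0.43 over 13 classes of peaks). TSS peaks took 49.8%, 48.96% and 48.6% of the scaled reads in peaks in the H3K18cr libraries and 49.8%, 51.6% and 53.7% in the H3K18ac libraries. The means were 49.1% ± 0.60 and 51.7% ± 1.93 (SD, n = 3, exact permutation p = 0.1). H3K18ac replicate 3, which had the widest spread of log2 values, moved both: without it the TSS difference was −0.086 and the difference in read share went from −2.59 to −1.61 percentage points. After cyclic loess, which evens out differences in spread, the TSS difference was −0.071, and with the deposited values as they were, without centring, it was −0.079.

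Elsewhere the marks were near each other. Peaks at starts of genes that are not protein-coding had a mean difference of −0.022, peaks inside genes −0.0099 and peaks outside genes 0.014, all with overlapping libraries and exact permutation p of 0.4, 0.9 and 0.8. When 1 library was left out, these differences ran from −0.038 to −0.014, from −0.044 to 0.019 and from −0.019 to 0.040. Set against peaks of like ChIP over input, TSS peaks lay further toward H3K18ac only where the signal was strong, as a description over deciles of ChIP over input. In deciles 1 to 4 the TSS medians were 0.0497, 0.0404, 0.0447 and 0.0483 and those elsewhere −0.0027, 0.0116, 0.0016 and 0.0060, so TSS peaks there lay on the H3K18cr side. In deciles 5 and 6 both were within 0.01 of 0. From decile 7 up TSS peaks were lower, at −0.054, −0.11, −0.18 and −0.30 against −0.014, −0.024, −0.044 and −0.067 elsewhere. Decile 10 held 3091 TSS peaks with 172 H3K18ac-higher calls and 909 other peaks with 5. In quintile 1 of TSS peaks by ChIP over input, with log2 values up to 1.11, the median difference was 0.026.

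**Figure D3:**
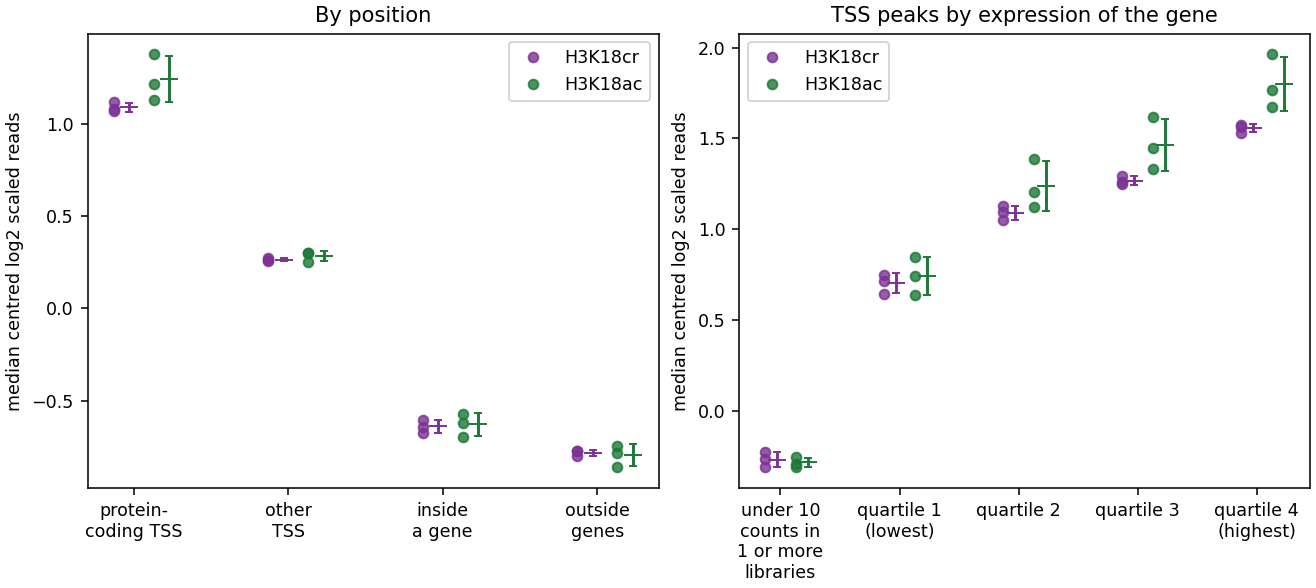
Median centred log2 scaled reads per library (points, 3 per mark) with the mean and SD (bars) for peaks by position (left) and for TSS peaks by expression of their gene (right). H3K18ac lies above H3K18cr at protein-coding TSS and in the upper expression quartiles, where the means are 1.80 and 1.56 in quartile 4, and the marks overlap in the other position classes and for genes with fewer than 10 counts in at least 1 RNA-seq library.

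The difference at TSS peaks was larger where the gene was more expressed, a trend that was not itself tested. Expression was taken as the mean log2 CPM per kb of transcript in 4 RNA-seq libraries of DMSO-treated cells, for 12067 TSS peaks (94.2%). In the highest quartile of expressed genes the median centred value was 1.56, 1.53 and 1.57 for H3K18cr and 1.67, 1.76 and 1.96 for H3K18ac, a mean difference of −0.25 with no overlap between the marks (exact permutation p = 0.1). The mean differences were −0.20 in quartile 3, −0.15 in quartile 2 and −0.042 in quartile 1, and 0.015 over the 1013 TSS peaks of genes with fewer than 10 counts in at least 1 of the 4 RNA-seq libraries. Quartile 3 also showed no overlap, and in quartile 2 and below the libraries of the marks overlapped. Without H3K18ac replicate 3, quartiles 2 and 3 moved to −0.071 and −0.12, and after cyclic loess quartiles 2 to 4 were at −0.065, −0.10 and −0.14. H3K18ac-higher calls went from 0.796% of peaks in quartile 1 to 3.76% in quartile 4. Peaks of the higher quartiles also held more reads, and the part of read number in these shares was not tested. The called H3K18ac-higher TSS peaks had a median of 241.2 scaled reads, against 156.6 for all TSS peaks. Genes at the called H3K18ac-higher TSS peaks had a median expression of 5.08, against 3.72 for all TSS peaks, and those at the 8 H3K18cr-higher ones 2.32 log2 CPM per kb. This value rests on few peaks and moved with the calls, to 3.24 over 264 H3K18cr-higher TSS peaks with expression without H3K18cr replicate 3 and to 1.55 over 32 by edgeR, while that at the H3K18ac-higher TSS peaks was 4.63 and 5.21.

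Width on its own separated the marks little. Over the quartiles of width of all peaks, with medians of 750, 1500, 2550 and 4650 bp, the mean differences were −0.023, 0.0090, −0.025 and −0.044, and the libraries of the marks overlapped in each (exact permutation p of 0.6 to 0.9). Among TSS peaks the relation was not monotonic. The median difference was −0.084 in width quintile 1 (up to 1800 bp), −0.19 in quintile 3 (2400 to 2850 bp) and −0.047 in quintile 5 (from 4050 bp), and these are descriptions over peaks without a test. GC content behaved alike, with −0.21 in quintile 2 of TSS peaks (48.8% to 52.9%) and −0.017 in quintile 5 (from 61.1%). TSS peaks with their midpoint within 59.5 bp of a start had a median of −0.21 and those 623.5 bp or more off −0.0058. None of the 5 peaks with the highest mean was called. They were 73050 to 132750 bp wide and led by one at PCDH7, a protocadherin gene, and differed by −0.13 to 0.20, with limma adjusted p of 0.61 to 0.99. When 1 library was left out, those at VTI1A and RN7SL329P had −0.23 to −0.040 and −0.19 to −0.039, and that at MYL12AP1 0.059 to 0.24. The marks did not overlap at the one over PHLDB2, at 0.20, as was found at 25.6% of all TSS peaks.

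Gene lists drawn up with earlier results of these data known showed how the difference was spread over functions. At the 12497 protein-coding genes with a tested peak at a TSS, the median difference was −0.16, 71.9% were below 0 and 319 (2.55%) had a called H3K18ac-higher peak. All 29 cytosolic ribosomal protein genes were below 0, with a median of −0.37 and 3 called (RPL5, RPL32 and RPS14). All 24 DNA replication genes were below 0, with a median of −0.39, or −0.25 without H3K18ac replicate 3, and 1 called (MCM2, a subunit of the replicative helicase). All 22 oxidative phosphorylation genes with a peak were below 0, with a median of −0.36 and 1 called (NDUFA1, a complex I subunit). RPL5 held 143.9, 143.0 and 204.9 reads for H3K18cr against 250.8, 297.0 and 273.2 for H3K18ac, a difference of −0.76 (limma adjusted p = 0.0211). MCM2 held 143.0, 168.8 and 184.9 against 223.3, 284.3 and 317.6, a difference of −0.73 (limma adjusted p = 0.0262). In 14 alternative fits, among them loess, edgeR, DESeq2 and leaving out each library, 27 to 29 of the ribosomal, 19 to 24 of the replication and 21 to 22 of the oxidative phosphorylation genes stayed below 0.

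The promoters of the enzymes and readers of these marks are read against the 71.9% of all genes below 0, the median of −0.16 and the 2.55% called. Of 21 acyltransferase and acyl reader genes, 18 (85.7%) were below 0 with a median of −0.34, or −0.17 without H3K18ac replicate 3, and 2 were called, among them HAT1. HAT1, a histone acetyltransferase, held 183.0, 164.9 and 201.5 reads for H3K18cr and 265.3, 324.0 and 307.3 for H3K18ac, a difference of −0.71 (limma adjusted p = 0.0229). CREBBP and EP300, given here as the acyltransferases of both groups and not by the rule for named peaks, had −0.44 and −0.38 and were not called (limma adjusted p = 0.139 and 0.218). Of 17 deacetylase and sirtuin genes, 13 (76.5%) were below 0, near the share of all genes, with a median of −0.14, or −0.089 without H3K18ac replicate 3, and SIRT2, a sirtuin deacylase, was called at −0.80 (limma adjusted p = 0.0220). HDAC1, HDAC2 and HDAC3, the class I deacetylases examined one by one in the study, had differences of 0.083, −0.40 and −0.20, none called (limma adjusted p = 0.888, 0.245 and 0.668), and HDAC3 shares its peak with RELL2. HDAC1 had −0.027 without H3K18ac replicate 1, 0.0425 without H3K18cr replicate 1 and 0.19 without H3K18ac replicate 3, HDAC2 −0.21 without H3K18ac replicate 3, and HDAC3 −0.058 without H3K18ac replicate 1, −0.062 without H3K18cr replicate 3 and −0.33 without H3K18ac replicate 2.

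In the Wnt target and mitosis lists more genes lay above 0 than below it. Of 16 Wnt target genes with a peak, 3 were below 0 and the median was 0.11, with none called. NOTUM, a secreted Wnt inhibitor, had the largest value at 0.41, with 445.3, 454.9 and 331.5 reads for H3K18cr and 348.0, 295.4 and 276.6 for H3K18ac, the marks overlapping (limma adjusted p = 0.188). The Wnt median was 0.063 to 0.19 in the 14 alternatives, with 0.063 without H3K18cr replicate 1 and 0.18 without H3K18cr replicate 3. The Wnt medians per library overlapped, at 2.08, 2.05 and 1.83 for H3K18cr and 1.88, 2.06 and 2.10 for H3K18ac, and their means, 1.99 and 2.01, had the opposite order. Of 20 mitosis genes, 8 were below 0 and the median was 0.12, but the library medians overlapped, at 1.48, 1.41 and 1.05 for H3K18cr and 0.89, 1.13 and 1.38 for H3K18ac, and the alternatives gave −0.046 (without H3K18ac replicate 1) to 0.22 (without H3K18ac replicate 3), with 0.0083 and 0.060 without H3K18cr replicates 1 and 2. The 17 colon epithelial genes had a median of 0.014, with means of the library medians in the opposite order (1.97 for H3K18cr and 2.11 for H3K18ac). The 14 Polycomb-type developmental regulators had −0.039, against −0.041 for all peaks, −0.13 for all TSS peaks and −0.16 for all genes with a TSS peak. The 20 p53 targets had −0.093, the 20 immediate early genes −0.15, the 18 interferon and MHC class I genes −0.11 and the 18 acyl-CoA supply genes −0.10, each with none called. Without H3K18ac replicate 3 the p53, immediate early and acyl-CoA medians were −0.047, −0.058 and −0.047, without H3K18cr replicate 3 the p53 median was −0.052, and without H3K18ac replicate 1 the immediate early and interferon medians were −0.24 and −0.21. Leaving out H3K18cr replicate 1 or 3 likewise moved the immediate early median to −0.090 or the interferon median to −0.18, and leaving out H3K18cr replicate 1 or H3K18ac replicate 2 the acyl-CoA median to −0.17 or −0.19. The colon epithelial, Polycomb-type and acyl-CoA medians changed sign among the alternatives, the first pair also when 1 library was left out (−0.046 to 0.083 and −0.12 to 0.10). The 3 immune and 4 stromal marker genes with a peak had medians of 0.15 and 0.020, which were 0.030 and 0.0055 without H3K18ac replicate 3, and the stromal median was 0.00060 to 0.050 when 1 library was left out. Of the loci that the study examined singly, CDKN1A had 0.023, BBC3 −0.12 and the claudin gene CLDN7 −0.19, none called, and ADAD1 had no tested peak at a TSS. When 1 library was left out, CDKN1A had −0.078 (without H3K18ac replicate 1) to 0.075 (without H3K18ac replicate 3), BBC3 −0.16 (without H3K18cr replicate 3) to −0.072 (without H3K18cr replicate 2), and CLDN7 −0.37 (without H3K18ac replicate 1) to −0.056 (without H3K18ac replicate 3).

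**Figure D4:**
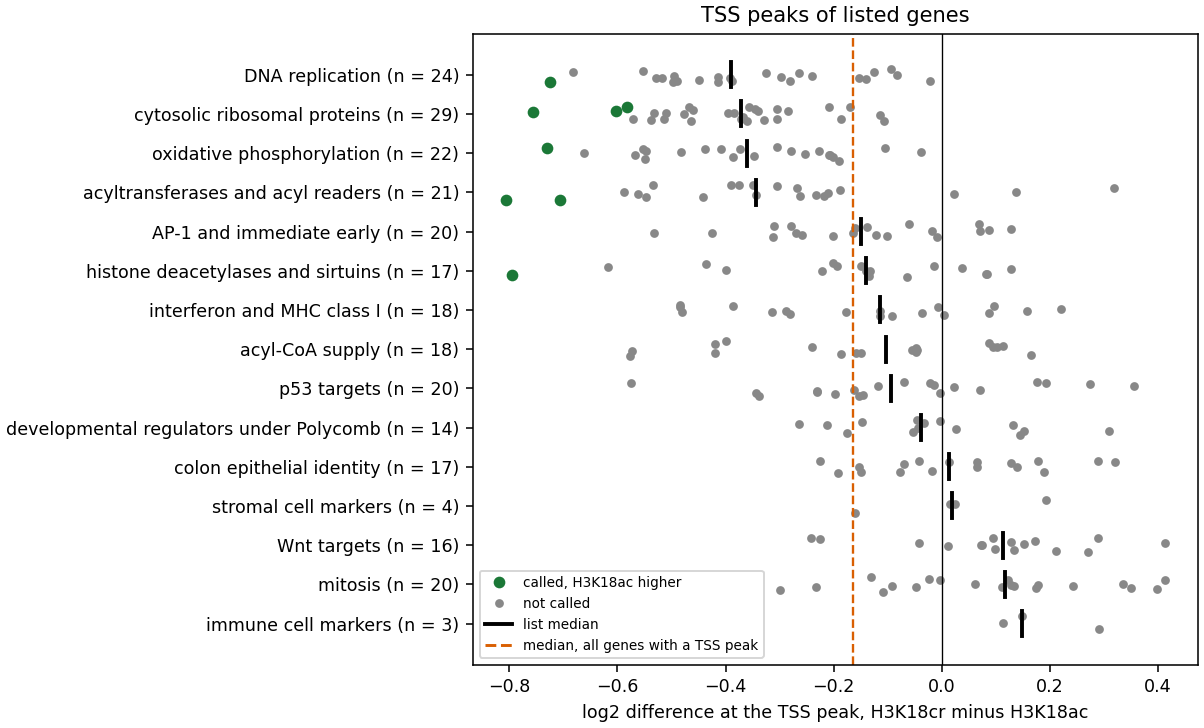
Log2 difference at the TSS peak, H3K18cr minus H3K18ac (horizontal axis), for each gene of 15 lists, with called peaks in green, the list median as a bar and the median of all genes with a TSS peak (−0.16) dashed. The replication, ribosomal and oxidative phosphorylation lists lie wholly to the left of 0, and the Wnt and mitosis medians lie to its right, at 0.11 and 0.12, the mitosis median falling to −0.046 without H3K18ac replicate 1.

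The letters of the promoters were read to describe what else the H3K18ac-higher peaks shared. In 300-base windows of GRCh38, from 250 bases before to 50 bases from a GENCODE start in each of the 12806 TSS peaks, 11 motifs were searched on both strands. They were the ETS letters CCGGAAG, the NRF1 letters GCATGCGC, the YY1 letters AAGATGGC, the cyclic AMP response element TGACGTCA, the CCAAT box written as its name, the GC box GGGCGG, the TATA box with letters TATAAA, the AP-1 letters TGANTCA, the E-box with letters CACGTG, the TCF/LEF letters ATCAAAG and a ZNF143 motif given by name only. Matches of different motifs were counted separately where they overlapped. The response element was found in 2.70% of the windows, in 29 of the 256 (11.3%) called H3K18ac-higher and in none of the 8 called H3K18cr-higher. Over quintiles of all TSS peaks ranked by their difference, it went from 6.75% in quintile 1, the most toward H3K18ac, to 3.44%, 1.72%, 1.09% and 0.508% in quintile 5, the most toward H3K18cr. The ETS letters went from 23.5% to 7.03% and the YY1 letters from 8.86% to 1.45% over the same quintiles, against 15.7% and 4.75% of all windows.

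The AP-1 letters went the other way, from 3.40% in quintile 1 to 7.38% in quintile 5, with 5.34% over all windows. The TATA box went from 4.33% to 5.74%, and the GC box was at 69.2% and 66.7%. The NRF1 letters went from 6.32% to 2.73%, CCAAT from 38.0% to 26.8% and the E-box from 11.9% to 7.50%. ZNF143 and TCF/LEF letters were rare, at 0.383% and 1.44% of windows. In the MS275 libraries, windows with the response element had a median difference of −0.19 and those without it −0.032, and windows with the AP-1 letters had 0.033 and those without −0.040. A match is a run of letters and a description only.

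The same comparison in cells given 5 µM MS275 used other libraries of each mark, but the libraries numbered 3 of H3K18cr were alike in how they deviated. The deviations of H3K18cr replicate 3 from the mean of its group correlated at 0.23 across peaks between DMSO and MS275, and those of replicates 1 and 2 at 0.11 and 0.074. With MS275, H3K18cr replicate 3 was the highest H3K18cr value at 10 of the 12 named H3K18ac-higher peaks and the lowest at all 12 named H3K18cr-higher peaks. The MS275 values are therefore not given as an independent repeat. No peak was called there (0% of 39997, limma), with 3157 at an unadjusted p under 0.05. Without H3K18cr replicate 3 of the MS275 libraries, 731 peaks (1.83%) were called, 508 with H3K18ac higher and 223 with H3K18cr higher, among them 87 of the 280 called with DMSO, and 0 to 3 when another MS275 library was left out. Of the 267 peaks called H3K18ac higher with DMSO, 261 (97.8%) were below 0 with MS275, where 62.0% of all peaks and 70.9% of TSS peaks kept their sign. An unadjusted p under 0.05 in the same direction was met by 142 of the 267, by 2615 of all 39997 peaks and by 1547 of the 12806 TSS peaks. The median difference of the 267 was −0.32 with MS275 against −0.68 with DMSO, values that are not comparable in size because the peaks were selected on the DMSO libraries. All 13 peaks called H3K18cr higher were above 0 with MS275, with a median of 0.34 and 7 at an unadjusted p under 0.05. Without H3K18cr replicate 3 of the MS275 libraries, 261 of 267 and 13 of 13 kept their sign, as did 63.2% of all peaks, with medians of −0.43 and 0.43 for the called peaks. Over all TSS peaks the median was −0.036 with MS275 and −0.13 with DMSO. With MS275 it was −0.0061 without H3K18ac replicate 1 and −0.062 without H3K18ac replicate 2. With DMSO it was −0.19 without H3K18ac replicate 1 and −0.071 without H3K18ac replicate 3. No peak passed the test of a change of the difference between treatments (limma interaction, 0 called, 1397 at an unadjusted p under 0.05, and 0 and 1720 when same-numbered libraries of each mark were blocked together). The ribosomal, replication and oxidative phosphorylation medians were −0.18, −0.18 and −0.17 with MS275, and the Wnt and mitosis medians 0.16 and 0.18. Without H3K18ac replicate 1 of the MS275 libraries, the ribosomal, replication and oxidative phosphorylation medians were −0.12, −0.053 and −0.075. Without H3K18ac replicate 2 of these libraries they were −0.18, −0.27 and −0.19.

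**Figure D5:**
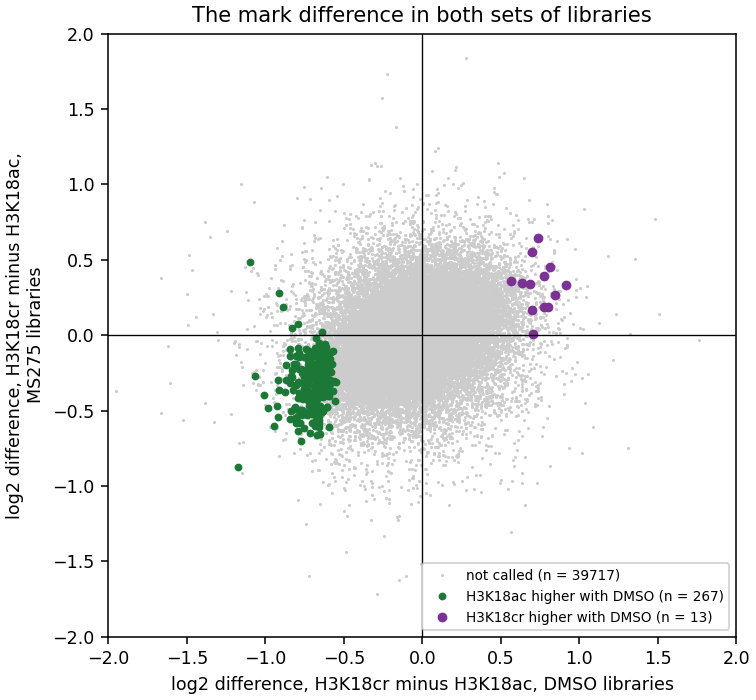
Log2 difference H3K18cr minus H3K18ac of each peak in the MS275 libraries (vertical axis) against that in the DMSO libraries (horizontal axis). Of the peaks called with DMSO, 261 of 267 green points (H3K18ac higher) lie below 0 with MS275 and all 13 purple points (H3K18cr higher) lie above it.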

How the data were processed

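ChIP-seq libraries of H3K18cr and H3K18ac and their inputs, and RNA-seq libraries, of HCT116 cells were analysed. The authors mapped ChIP reads to GRCh38, removed duplicates and called 1 list of MACS peaks in SEQMONK. The deposited values are log2 read counts per peak, scaled to the largest library, with 0.9 reads in place of 0, and the submitters' processing notes name Trim Galore 0.4.2, Bowtie2 2.2.5 and TopHat2 2.0.12. The deposited RNA values are raw counts per gene. How strand was counted is not given in the sources used here. The members and lists were chosen with earlier results of these data known.

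Each library was centred on its median peak, peaks with a mean of at least 10 scaled reads were kept, and limma 3.58.1 (R 4.3.3) with a mean-variance trend compared the marks over 39997 peaks, with Benjamini-Hochberg adjustment. Powers of 2 of the deposited values were whole multiples of 1 factor per library in 100% of values (within 0.01 reads), and these reads went into edgeR 4.0.16 and DESeq2 1.42.0 as alternatives. Tests on simulated data with 3 libraries per mark recovered 52% of peaks changed 1.6-fold and 100% of those changed 2.5-fold with limma (39997 peaks). The changed peaks were drawn only from those with a mean of at least 50 reads. No simulated library was made to stand apart as H3K18cr replicate 3 did, so the recovery in the real libraries is not known. Class medians per library were compared by two-sided exact permutation tests (scipy 1.17.1). Peaks were placed by GENCODE v44 protein-coding starts within 1 kb, log2 CPM per kb used a pseudocount of 0.1 and the median transcript length, and ChIP over input used the single DMSO input library. Named peaks were the 12 with the largest difference each way among those called (1 per gene), with a mean of at least 50 scaled reads and no overlap between marks, the 5 highest, the loci studied singly and called list members. RNA depth was 36312506 to 53415604 counts. Mouse libraries were not used here, and some single genes are not reported here.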

Additional observations from a re-analysis of the deposited data

Results flagged for a closer look

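The median expression of the genes at the called H3K18ac-higher TSS peaks was 5.10, 5.10, 4.77 and 5.06 log2 CPM per kb in the 4 RNA-seq libraries with DMSO, and replicate 3 lay apart from the others by more than the limit for a single outlying value among 4 (Dixon's test). Over all TSS peaks the medians were 3.74, 3.86, 3.46 and 3.90, with replicate 3 again lowest. Chance marks about 1 in 20 such groups.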

How the results depend on the processing

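The count of 280 called peaks went to 0 with the deposited log2 values without centring, 0 after cyclic loess normalization (2212 and 5440 peaks at an unadjusted p under 0.05) and 470 with all 12 ChIP libraries in one fit, and to 0 to 2972 when 1 library was left out. A filter at 30 scaled reads gave 223 and no filter 333. With the replicate number as a block, 0 peaks were called (4463 at an unadjusted p under 0.05), and 2 with MS275, where leaving out 1 library gave 0 to 731, an alternative chosen after seeing the data like the block within each mark for the interaction. Whether the numbers pair the libraries of the marks is not known, and the main fit had no block. The deviations of same-numbered DMSO libraries from the mean of their mark correlated at -0.066, -0.040 and -0.14. These values cannot decide it, since the deviations of the 3 libraries of a mark are tied to each other. Between DMSO and MS275, which the study compared by a paired test, the same correlations were 0.105, 0.074 and 0.229 for H3K18cr and -0.204, 0.050 and -0.133 for H3K18ac, and the interaction is given with and without the block. For the marks within DMSO, at TSS peaks and in the share of TSS reads, the exact sign-flip p over replicate numbers was 0.25, the smallest possible. The cause of these changes was not tested.

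The differences of the TSS class, expression quartiles 2 to 4 and the share of TSS reads kept their direction in all alternatives run. Small differences changed sign. Without centring, other TSS gave 0.052, inside genes 0.064, width quartiles 1, 3 and 4 0.051, 0.049 and 0.030, and expression quartile 1 0.033. After loess, those width quartiles gave 0.011, 0.017 and 0.067 and expression quartile 1 0.0079. With 30 reads, other TSS gave 0.045, inside genes 0.041 and width quartile 3 0.0018. With a 2 kb window other TSS gave 0.016, and without a filter width quartile 2 gave -0.0039. Leaving out 1 library gave -0.044 to 0.019 inside genes, -0.019 to 0.040 outside genes, -0.10 to 0.045, -0.015 to 0.031, -0.055 to 0.0084 and -0.085 to 0.0033 for width quartiles 1 to 4, -0.0053 to 0.037 for genes under the count filter and -0.094 to 0.010 for expression quartile 1. Among single peaks, the strongest one, at PCDH7, changed sign with loess (-0.16), with no filter (-0.0078) and when 1 library was left out (-0.075 to 0.14), as CDKN1A (-0.078 to 0.075) and HDAC1 (-0.027 to 0.19) did in the last case. Of the 24 named calls, all were also made by edgeR. DESeq2 kept 10, lost 1 (POLR3E) and gave no adjusted p for 13.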

Other observations

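Peaks on the X chromosome lay further toward H3K18ac than those of any other chromosome, with a median difference of -0.13 over 855 peaks and -0.26 at TSS, and 14 of them (1.64%) were called H3K18ac higher, against 0.668% of all peaks. Chromosome 19 followed with -0.095 over 1715 peaks, of which 1.22% were so called. The median log2 ChIP over input of TSS peaks was 2.30 on the X chromosome and 1.37 to 1.84 on the others, and its part in the difference was not tested.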
